A study of Mus musculus with 16 samples.

Results

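The oligoadenylate synthetase (OAS) genes Oas1a, Oas1g, Oas2, Oas3, Oasl1 and Oasl2 were followed across mouse tumours grown from cancer cells that carry or lack Trp53bp1, which encodes the DNA repair factor 53BP1. The members were taken by gene symbol, and all 6 of 6 were found among the 18635 genes listed. They were selected on measured values of these same data, taken here to be their genotype difference in the ID8 line. The ID8 genotype values below are therefore a description, with no test, and tests are given for KPC and for genes outside the 6.

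Synthetases of this family sense dsRNA in the cytosol and make short oligoadenylates. These act as messengers in the antiviral response of the cell. Interferon raises transcription of most OAS genes through response elements in their promoters, which is why the family serves as a readout of interferon signalling. In mice Oas1a and Oas1g encode active enzymes, Oas2 and Oas3 encode larger proteins with repeated synthetase units, and Oasl1 and Oasl2 encode OAS-like proteins with ubiquitin-like domains. Mouse Oasl1 lacks synthetase activity and is known to limit Irf7 translation, while mouse Oasl2 retains activity.

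The 16 libraries of bulk RNA were 3 from ID8 tumours with Trp53bp1 KO, 3 from ID8 WT tumours, 5 from KPC tumours with Trp53bp1 KO and 5 from KPC WT tumours. ID8 cells derive from mouse ovarian surface epithelium and KPC cells from a mouse pancreatic cancer; both were implanted in syngeneic mice of unstated strain and age, and the labels name no other treatment. The labels give a single knockout line per parental line and do not say whether it is a clone, so knockout and clone cannot be told apart. Host cells of a tumour keep the gene. Replicates are labelled as biological and the series describes 16 different tumours, but the animals are not named, so the p-values measure the spread between these samples. ID8 replicates differed far less than KPC replicates, with a biological coefficient of variation of 5.08% against 25.1%. Whether the ID8 spread covers that between animals cannot be told, so ID8 p-values may be too small for a statement about animals. Totals ranged from 17902877 to 19727541 counts per library, and levels are given as CPM, counts scaled to library size with TMM factors over all libraries. Trp53bp1 was at 18.2 to 19.3 CPM in ID8 KO against 45.4 to 50.6 CPM in ID8 WT, and at 27.6 to 37.7 CPM in KPC KO against 46.5 to 54.1 CPM in KPC WT. Which exons were targeted is not stated.

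The labelled tumour tissue was checked with markers of host cells. Of 22 markers of leukocytes, neutrophils, dendritic cells, endothelium and erythrocytes, 13 were at 0 in all ID8 libraries, among them Ptprc, the pan-leukocyte gene CD45, and Adgre1, a macrophage gene. Those above 3 counts in any ID8 library were Csf1r, Cd68, Cxcr2, Bst2 and Pecam1, of which Bst2 is itself raised by interferon. The endothelial genes Cdh5 and Kdr and the haemoglobin genes Hbb-bs and Hba-a1 were among those at 0. By these markers the ID8 libraries held little RNA of blood and endothelial cells, although they are labelled as tumours. Why was not tested. A comparison of ID8 with KPC thus also sets libraries with little RNA of these host cells against libraries with more. Fibroblast genes were not among the 22. Summed, Col1a1, Pdgfra and Dcn were at 651 to 692 CPM in ID8 WT and 703 to 760 CPM in ID8 KO, and at 3967 to 6450 CPM in KPC. Dcn alone had higher means in ID8 (599 CPM in KO, 451 CPM in WT) than in KPC (401 and 357 CPM). Whether the ID8 cancer cells express these genes was not tested. KPC libraries had Ptprc at 104.4 to 215.8 CPM in KO and 49.4 to 140.0 CPM in WT. The keratin gene Krt8 was at 1027 to 1042 CPM in ID8 KO, 1365 to 1515 CPM in ID8 WT, 2918 to 3802 CPM in KPC KO and 1695 to 2157 CPM in KPC WT. Wt1, a gene of ovarian surface epithelium, was at 739 to 771 CPM in ID8 KO, 606 to 635 CPM in ID8 WT and at most 1.77 CPM in KPC. The epithelial genes Epcam and Cdh1 were at most 3.62 and 1.13 CPM in ID8.

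The members changed by very unequal amounts in ID8, while most moved together across KPC libraries. Their promoters are shown as a description, and any part of the promoters in these patterns was not tested. The RefSeq promoter table of build GRCm38.p6 held a window of 250 bases before to 50 bases after the gene start for 5 of the 6 members, all on chromosome 5. It held none for Oas2, the member with the largest ID8 change. The deposited counts were made on another build, GRCm39. The core of the interferon-stimulated response element was searched on both strands as GAAA, any 2 bases and GAAA again, and matches are in capitals. The window of Oas1a lies at chr5:120907476-120907775 on the minus strand, that of Oas1g at chr5:120887564-120887863 on the minus strand, that of Oas3 at chr5:120777610-120777909 on the minus strand and that of Oasl1 at chr5:114922990-114923289 on the plus strand.
Oas1a: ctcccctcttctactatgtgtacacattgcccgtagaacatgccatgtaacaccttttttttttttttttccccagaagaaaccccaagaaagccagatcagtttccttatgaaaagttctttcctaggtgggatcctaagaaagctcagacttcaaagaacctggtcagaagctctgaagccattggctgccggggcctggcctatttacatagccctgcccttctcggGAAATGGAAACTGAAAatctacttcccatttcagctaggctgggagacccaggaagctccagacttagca
Oas1g: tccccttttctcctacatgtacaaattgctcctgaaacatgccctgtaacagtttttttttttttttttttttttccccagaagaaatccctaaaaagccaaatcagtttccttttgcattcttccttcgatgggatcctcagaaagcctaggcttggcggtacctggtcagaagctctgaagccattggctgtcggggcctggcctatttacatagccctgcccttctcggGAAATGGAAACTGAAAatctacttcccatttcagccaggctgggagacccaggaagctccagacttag
Oas3: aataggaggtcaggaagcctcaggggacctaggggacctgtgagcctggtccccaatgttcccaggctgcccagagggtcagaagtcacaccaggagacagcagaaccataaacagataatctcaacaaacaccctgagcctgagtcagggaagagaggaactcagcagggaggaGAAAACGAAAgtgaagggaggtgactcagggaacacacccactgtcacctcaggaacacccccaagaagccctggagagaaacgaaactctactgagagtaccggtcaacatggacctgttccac
Oasl1: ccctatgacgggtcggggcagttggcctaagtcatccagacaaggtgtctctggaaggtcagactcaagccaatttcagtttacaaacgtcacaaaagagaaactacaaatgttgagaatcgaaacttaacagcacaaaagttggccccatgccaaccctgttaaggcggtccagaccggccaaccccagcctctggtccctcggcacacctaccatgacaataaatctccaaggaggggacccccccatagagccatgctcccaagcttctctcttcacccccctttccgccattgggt
Oas1a and Oas1g each held a pair of overlapping matches, GAAATGGAAA and GAAACTGAAA, which began 20 and 14 bases before the start of Oas1a and 18 and 12 bases before that of Oas1g. Their windows were identical at 85.3% of 306 aligned positions. Oas3 held GAAAACGAAA, starting 75 bases before the gene start. The windows of Oasl1 and Oasl2 held no match. For Oas1a, Oas1g and Oasl2 the bases just after the RefSeq start were in no coding GENCODE M21 transcript of the gene, so these distances and the lack of a match hold only relative to the RefSeq start. Of all 32851 windows in the table, 3.44% held a match. The gamma-activated site, searched as TTCNNNGAA on both strands, was found among the members in Oas1a alone, 98 bases before its start, and in 8.3% of all windows. A match describes letters in this window and does not show binding.

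Reads of Oas1a and Oas1g can be hard to assign. Of the 1786 stretches of 100 bases in the coding transcript of Oas1a, 40.9% also occurred in Oas1g, and 38.2% of those of Oas1g occurred in Oas1a (GENCODE M21 transcripts). With stretches of 50 bases the shares were 57.6% for Oas1a and 54.1% for Oas1g. The sources used here do not give the read length. At 100 bases the share was 0 for Oas2, Oas3, Oasl1 and Oasl2. The deposited values are estimated counts that can split reads between genes, so Oas1a and Oas1g are uncertain as single genes, and the sum of all listed Oas1 genes (Oas1a, Oas1c, Oas1d, Oas1e, Oas1f and Oas1g) is given beside them.

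In ID8 all 6 members were higher in KO than in WT libraries, and the genotype groups did not overlap for any of them. By edgeR at an adjusted p of 0.05, 6 of 6 members were called higher, where 50.8% of the 11933 tested genes were called (25.4% higher and 25.5% lower). Groups did not overlap for 57.9% of tested genes, with KO higher for 28.6%. Nothing is read from these counts, since the members were chosen with this contrast known. The sizes ran from a log2 change of 0.45 for Oasl1 to 7.04 for Oas2, with a median of 3.77 over the members and 0.006 over all tested genes.

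Among the enzymes that start from dsRNA binding, Oas1a was at 16.5, 12.3 and 15.8 CPM in ID8 KO, against 0.646, 0.917 and 0.541 CPM in ID8 WT. Every KO library thus stood more than 10-fold above every WT library, with a log2 change of 4.40 (SE 0.192). Oas1g was at 4.27, 4.87 and 5.64 CPM in ID8 KO, against 0.323, 0.108 and 0.0541 CPM in ID8 WT, where the values rest on 6, 2 and 1 rounded counts. The log2 change was 4.87 (SE 0.318), and 5.81 without WT replicate 1. The sum of all Oas1 genes, in which shared reads count once, was at 25.5, 21.7 and 26.9 CPM in ID8 KO, against 3.61, 3.08 and 2.97 CPM in ID8 WT, with a log2 change of 2.94 (SE 0.118). In ID8 WT Oas1c averaged 2.36 CPM of the mean sum of 3.22 CPM, and in ID8 KO 4.92 of 24.7 CPM. Oas1c shared 0% of its stretches of 100 bases. The smaller change of the sum therefore includes this gene and does not measure read sharing between Oas1a and Oas1g.

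Oas2, which encodes a larger synthetase anchored to membranes by a lipid, had 141, 77 and 102 counts in ID8 KO, against 0, 1 and 1 counts in ID8 WT. Summed counts were 320 in KO and 2 in WT, a ratio of 165 per library total with a 95% counting interval of 45.2 to 1360. With so few WT counts, its fitted log2 change of 7.04 (SE 0.479) depends on the prior count. Oas3, the longest member, was at 3.28, 2.65 and 2.79 CPM in ID8 KO, against 0.215, 0.324 and 0.432 CPM in ID8 WT, with a log2 change of 3.14 (SE 0.273). These genes were close to the detection floor in ID8 WT, where 3 counts correspond to about 0.15 CPM.

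The OAS-like genes were already expressed in ID8 WT. Oasl2 was at 80.0, 67.2 and 67.8 CPM in ID8 KO, against 24.9, 23.0 and 25.0 CPM in ID8 WT, a log2 change of 1.56 (SE 0.075). Oasl1 was at 5.72, 5.40 and 6.27 CPM in ID8 KO, against 4.09, 4.32 and 4.38 CPM in ID8 WT, a log2 change of 0.45 (SE 0.124). The groups of Oasl1 did not overlap, but its lowest KO library was only about 1 CPM above its highest WT library. The leukocyte marker Ptprc had 0 counts in all 6 ID8 libraries, and Cd68 was lower in KO, at 3.64 to 5.43 CPM against 10.96 to 12.6 CPM in WT.

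**Figure D1:**
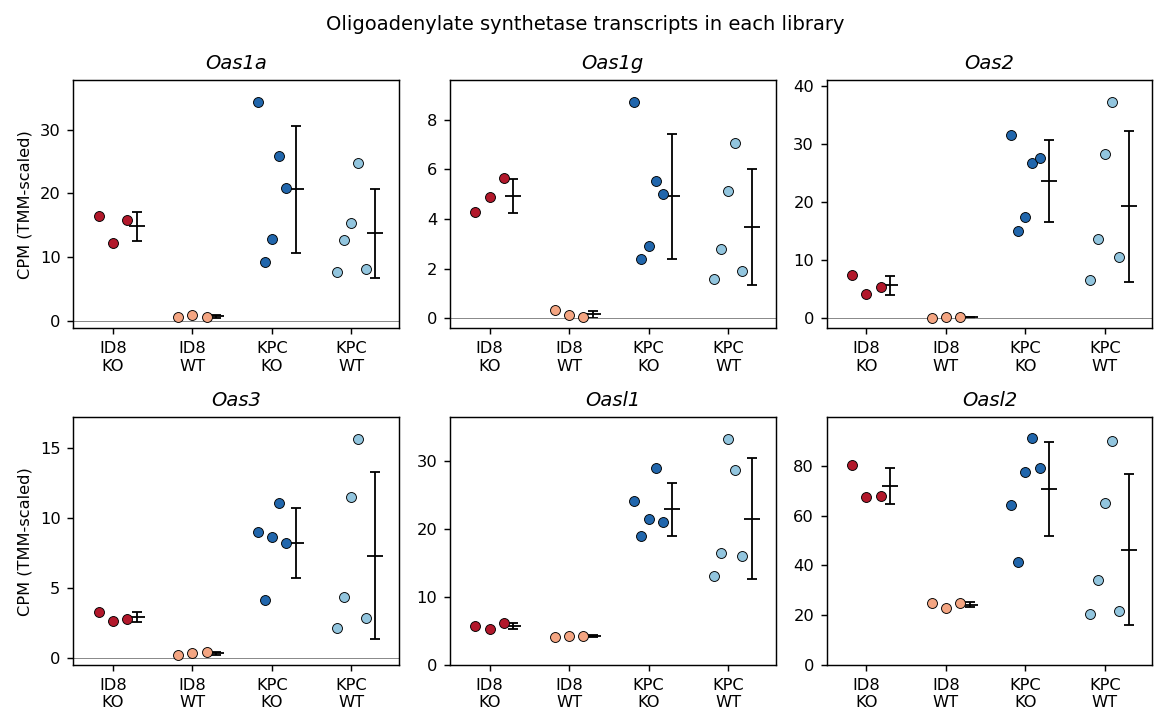
TMM-scaled CPM of each member in ID8 KO, ID8 WT, KPC KO and KPC WT libraries, with a separate linear axis per gene; points are libraries and bars show mean ± SD (n = 3, 3, 5 and 5). ID8 groups are apart in all 6 panels, closest for Oasl1 (5.40 to 6.27 against 4.09 to 4.38 CPM), while KPC groups overlap in all 6.

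In KPC the members were not called between genotypes. By edgeR, 0 of 6 members passed an adjusted p of 0.05 in either direction, where 13.7% of 14283 tested genes did (6.67% higher and 7.01% lower). Genotype groups were without overlap for 0 of 6 members, against 11.6% of tested genes (5.57% with KO higher). At an unadjusted p of 0.05 the count was also 0, and DESeq2 and limma-voom each called 0. All 6 fitted changes were positive, with a median log2 change of 0.35 over the members and -0.012 over all tested genes. Members moved together across libraries, so their signs are not independent.

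Oas1a was at 34.3, 9.30, 12.9, 25.8 and 20.8 CPM in KPC KO, against 7.75, 12.7, 15.4, 24.8 and 8.08 CPM in KPC WT. The groups overlapped, with 2 KO libraries above all WT libraries, and the log2 change was 0.58 (SE 0.405, edgeR adjusted p = 0.34). Its 95% interval, from the SE and a normal distribution, ran from -0.21 to 1.38. Oas1g averaged 4.90 ± 2.51 CPM in KPC KO and 3.68 ± 2.33 CPM in KPC WT (SD, n = 5 each), with a log2 change of 0.41 (SE 0.468, edgeR adjusted p = 0.573). The sum of all Oas1 genes was at 47.2, 13.7, 18.1, 33.5 and 28.0 CPM in KPC KO, against 9.996, 17.6, 25.2, 33.9 and 11.5 CPM in KPC WT. Its log2 change was 0.51 (SE 0.405, edgeR adjusted p = 0.401), and an exact two-sided permutation test over the samples gave p = 0.27, where 0.00794 is the smallest that 5 against 5 can give.

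Oas2 was at 31.6, 14.9, 17.5, 26.8 and 27.6 CPM in KPC KO, against 6.48, 13.6, 28.3, 37.3 and 10.51 CPM in KPC WT. The highest library of all was a WT one, and the log2 change was 0.29 (SE 0.441, edgeR adjusted p = 0.674). Oas3 ranged from 4.15 to 11.1 CPM in KPC KO and from 2.09 to 15.6 CPM in KPC WT, a 7.48-fold range among WT libraries, with a log2 change of 0.17 (SE 0.526, edgeR adjusted p = 0.85). Oasl2 was at 64.2, 41.3, 77.2, 91.0 and 79.0 CPM in KPC KO, against 20.6, 34.1, 65.1, 89.7 and 21.6 CPM in KPC WT, with a log2 change of 0.61 (SE 0.416, edgeR adjusted p = 0.335). Oasl1 averaged 22.9 ± 3.84 CPM in KPC KO and 21.5 ± 8.86 CPM in KPC WT, with a log2 change of 0.08 (SE 0.253, edgeR adjusted p = 0.851). The upper ends of the 95% intervals were 1.16 for Oas2, 1.42 for Oasl2 and 0.58 for Oasl1, so the intervals include increases up to these sizes. The fitted change of Oas3 turned to -0.07 and that of Oasl1 to -0.06 without WT replicate 1, to -0.03 and -0.01 without WT replicate 5, and that of Oasl1 to -0.02 without KO replicate 4.

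**Figure D2:**
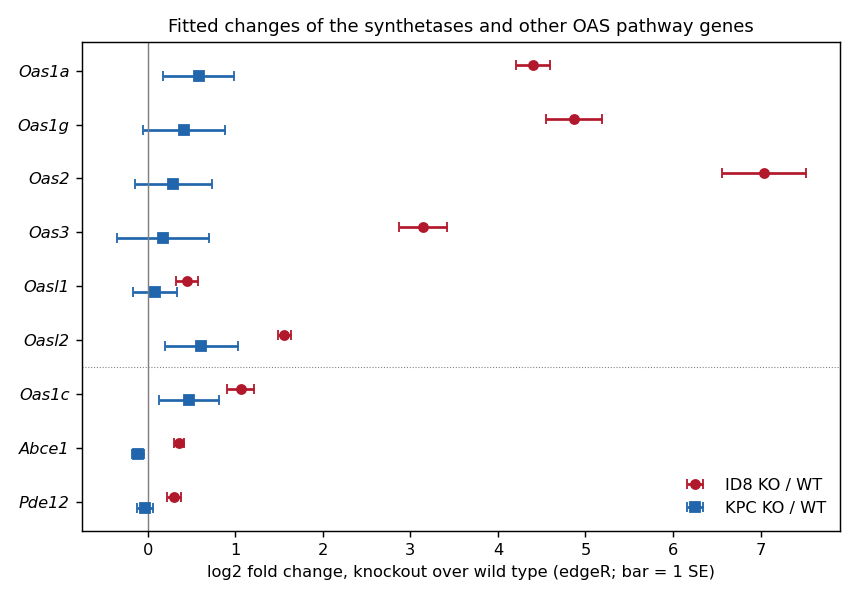
Fitted log2 fold changes (edgeR) of the 6 members, above the dotted line, and of the other pathway genes Oas1c, Abce1 and Pde12, below it, in ID8 (circles) and KPC (squares), knockout over wild type; bars are 1 SE. The members reach from 0.45 to 7.04 in ID8 and from 0.08 to 0.61 in KPC, while Oas1c is at 1.06 in ID8 and 0.47 in KPC.

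The change of the members in KPC minus that in ID8 was -3.80 (SE 0.685) for Oas1a, -4.45 (SE 0.867) for Oas1g and -6.74 (SE 1.17) for Oas2 on the log2 scale. It was -2.96 (SE 0.882) for Oas3, -0.94 (SE 0.593) for Oasl2 and -0.34 (SE 0.376) for Oasl1. For the sum of the Oas1 genes the difference was -2.41 (SE 0.61). The 95% intervals of the difference were -1.08 to 0.39 for Oasl1 and -2.10 to 0.22 for Oasl2, given for their width and not as a test. These differences contain the ID8 contrast with which the members were chosen and are given without a test; over all 14921 genes tested, 21.9% were called by this contrast (11.6% higher and 10.3% lower).

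Wild-type levels set the lines apart before any knockout. In WT libraries Oas1a averaged 13.7 CPM in KPC and 0.701 CPM in ID8, Oas2 19.2 CPM in KPC and 0.036 CPM in ID8, Oas3 7.29 CPM in KPC and 0.324 CPM in ID8, and Oasl1 21.5 CPM in KPC and 4.26 CPM in ID8. WT libraries of the lines did not overlap for these genes or for Oas1g, 5 of 6 members, where 77.2% of 14921 tested genes did not overlap (44.8% with KPC higher). Oasl2 was the exception, at 20.6 to 89.7 CPM in KPC WT and 23.0 to 25.0 CPM in ID8 WT. KPC libraries held leukocyte transcripts that ID8 libraries lacked, and their part in the higher KPC levels was not tested. In bulk samples, fewer cells of a type and less RNA per cell cannot be told apart.

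Ordered by mean level, Oas1a ran from KPC KO over ID8 KO and KPC WT to ID8 WT, and only the last step was without overlap. Oas1g was highest in ID8 KO (4.92 CPM) and KPC KO (4.90 CPM), again with only ID8 WT apart. Oas2 and Oas3 ran from KPC KO over KPC WT and ID8 KO to ID8 WT, with only ID8 WT apart from its neighbour. For Oasl1 both KPC groups lay above ID8 KO without overlap, and ID8 KO above ID8 WT. For Oasl2 the order was ID8 KO, KPC KO, KPC WT and ID8 WT, in which neighbours overlapped at every step.

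Per kilobase of the longest coding transcript, Oasl2 had the highest mean level of the 6 in every group, at 23.0 CPM per kb in ID8 KO, 7.79 in ID8 WT, 22.6 in KPC KO and 14.8 in KPC WT. Oas1a followed in ID8 KO (7.88 CPM per kb) and KPC KO (10.9), while Oasl1 followed in ID8 WT (1.95) and KPC WT (9.85). Oas3 had the lowest level in ID8 KO (0.615 CPM per kb), KPC KO (1.74) and KPC WT (1.54), and Oas2 in ID8 WT (0.00909). The mix of members also differed between lines: the level of Oas2 per kb was 0.158 to 0.212 of that of Oas1a in ID8 KO and 0.398 to 0.877 of it in the 10 KPC libraries. Oasl1 was at 0.102 to 0.132 of Oasl2 per kb in ID8 KO, 0.235 to 0.268 in ID8 WT, 0.380 to 0.657 in KPC KO and 0.457 to 1.06 in KPC WT. These lengths come from one annotation and carry no error of their own.

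Within KPC the same libraries were low for all members. KO replicate 2 was the lowest KO library and WT replicate 1 the lowest WT library for 6 of 6 members. WT replicates 3 and 4 were the highest 2 WT libraries for 6 of 6 members, and KO replicates 1 and 4 were among the highest 2 KO libraries for 5 of 6 members each. After centring on the genotype means, pairs of members had a Pearson r of 0.723 to 0.985 across the 10 KPC libraries (median 0.887 over 15 pairs), a description of libraries that share depth and tissue makeup. Ptprc was at 215.1, 104.4, 132.3, 215.8 and 135.5 CPM in KPC KO and 50.3, 55.4, 90.3, 140.0 and 49.4 CPM in KPC WT. It was lowest in KO replicate 2 and, among WT libraries, in replicate 5. The summed level of the 8 leukocyte markers was 2995, 2082, 2819, 3209 and 2574 CPM in KPC KO and 1755, 1389, 1592, 2682 and 1183 CPM in KPC WT, with none of them at 0. WT replicate 1, lowest among WT for all members, was the second highest WT library by this sum and lay above replicate 3. Their part in the spread of the members was not tested.

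**Figure D3:**
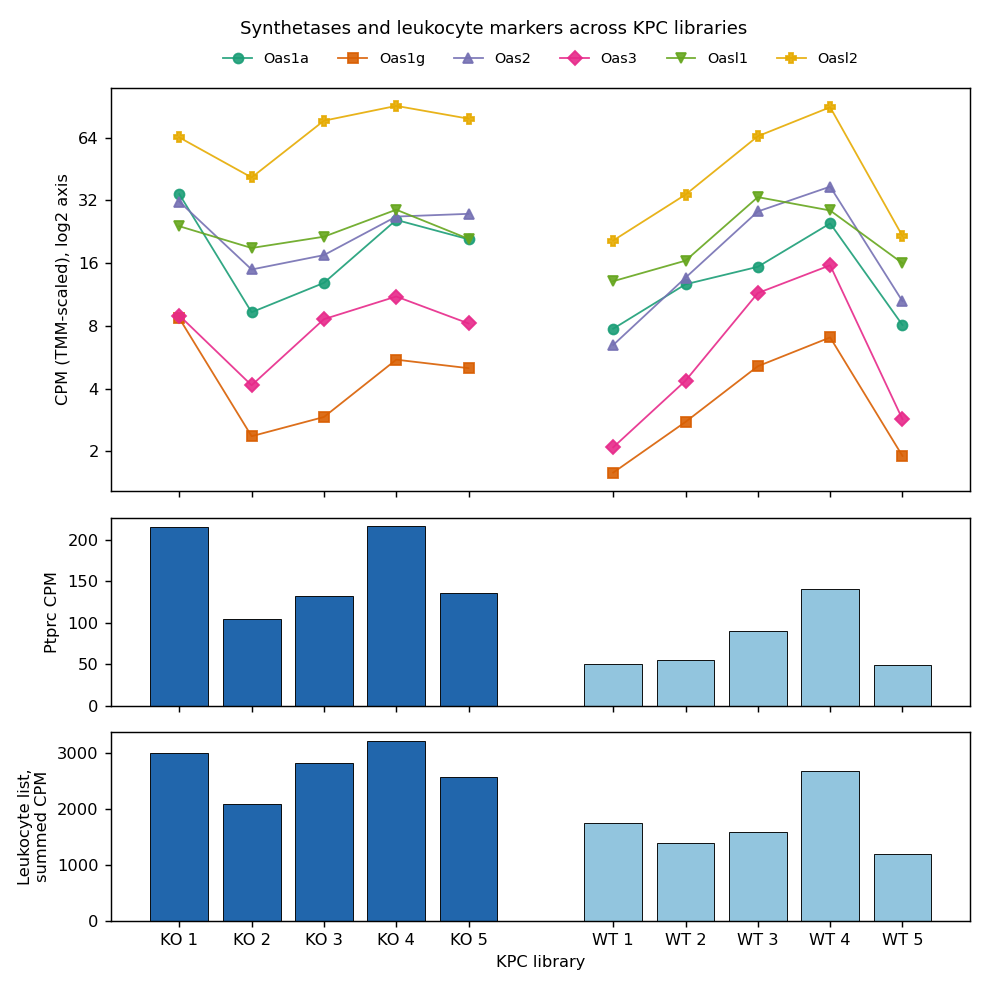
TMM-scaled CPM of the 6 members (upper panel, log2 axis), of Ptprc (middle panel, linear axis) and of the 8 leukocyte markers added up (lower panel, linear axis) in each KPC library, KO on the left and WT on the right; points joined by lines are members, with no order implied, and bars are marker levels. KO replicate 2 and WT replicate 1 are lowest in their group for all 6 members; the leukocyte sum is at 2082 CPM in KO replicate 2, lowest of KO, and at 1755 CPM in WT replicate 1, second highest of WT.

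The genes outside the family whose pattern was most like the members in KPC were all known interferon-responsive genes or MHC genes. Likeness was the Pearson r, over 10 libraries centred on genotype means, with the mean standardized level of the members, among 12541 genes. The closest 5 were Irf7, a transcription factor of the interferon response (r = 0.9905), Ifi205, of the Ifi200 family (0.9814), Isg15, a ubiquitin-like modifier (0.9792), Ifit1, an RNA-binding antiviral factor (0.9788), and H2-Q6, an MHC class I gene with close relatives whose reads can be shared (0.9741). None of the 5 was called between genotypes in KPC (edgeR adjusted p of 0.0932 to 0.805). Isg15 had a log2 change of 0.71 (SE 0.446) and Ifit1 of 0.17 (SE 0.416) there.

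Of the regulators of the oligoadenylate pathway Abce1 and Pde12, 2 of 2 rose in ID8, by small amounts, and 0 of 2 were called in KPC, beside 50.8% of all tested genes called in ID8 and 13.7% in KPC. Abce1, the gene of an inhibitor of the pathway that also recycles ribosomes, rose in ID8 to 112.9 ± 7.55 CPM in KO, against 88.2 ± 2.60 CPM in WT (SD, n = 3 each; log2 change 0.36, SE 0.0557, edgeR adjusted p = 4.9e-05). Pde12, the gene of a phosphodiesterase that breaks down oligoadenylates, rose in ID8 to 19.9 ± 0.739 CPM in KO, against 16.2 ± 1.29 CPM in WT (log2 change 0.30, SE 0.0789, edgeR adjusted p = 0.0042). In KPC the log2 change was -0.11 for Abce1 (SE 0.0713, edgeR adjusted p = 0.322) and -0.03 for Pde12 (SE 0.0939, edgeR adjusted p = 0.839). The Abce1 change differed between lines, by -0.44 (SE 0.106, edgeR interaction adjusted p = 0.00817).

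**Figure D4:**
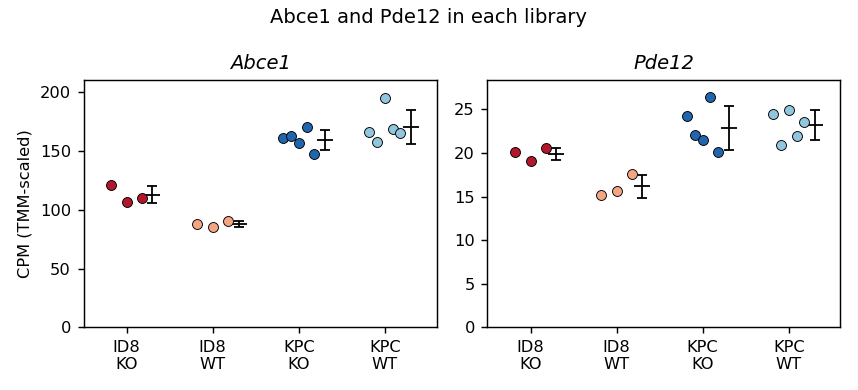
TMM-scaled CPM of Abce1 and Pde12 per library on linear axes from 0, in ID8 KO, ID8 WT, KPC KO and KPC WT; points are libraries and bars show mean ± SD (n = 3, 3, 5 and 5). ID8 KO lies above ID8 WT for both genes, for Abce1 at 106.9 to 121.4 CPM in KO against 85.5 to 90.7 CPM in WT, while the KPC groups overlap.

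Among OAS relatives, Oas1c was the only listed gene of 6 named that passed the count filter. It was at 4.79, 4.55 and 5.43 CPM in ID8 KO, against 2.64, 2.05 and 2.38 CPM in ID8 WT, and rose by a log2 change of 1.06 (SE 0.153, edgeR adjusted p = 2.36e-05). In KPC its log2 change was 0.47 (SE 0.344, edgeR adjusted p = 0.366). No expression values are given here for Oas1b and Oas1h, which are among the 6 named.

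Upstream signalling genes were compared in both lines, which differ in spread (a biological coefficient of variation of 5.08% in ID8 and 25.1% in KPC). Of 9 interferon receptor and signalling genes, 7 rose in ID8 and 0 fell (median log2 change 0.40), and 2 rose in KPC and 0 fell (median 0.25). Of all tested genes, 25.4% rose in ID8 and 6.67% in KPC, with medians of 0.006 and -0.012. Irf1, among the 7 in ID8, was not called there in a joint fit of all libraries (edgeR adjusted p = 0.302). In ID8 the largest changes were those of Usp18, a feedback inhibitor of the interferon receptor (3.54, SE 0.25), Irf7 (1.38, SE 0.125), Irf9, a DNA-binding factor of the interferon response (1.08, SE 0.0749), and its partner Stat2 (0.43, SE 0.0615). The receptor genes Ifnar1 (0.23, SE 0.0448) and Ifnar2 (0.19, SE 0.0574) rose by less, and the kinase genes Jak1 (0.05, SE 0.0496) and Tyk2 (-0.03, SE 0.053) were not called. The 2 genes that rose in KPC were Irf1, an interferon-induced transcription factor (0.99, SE 0.213, edgeR adjusted p = 0.017), and Tyk2 (0.37, SE 0.104, edgeR adjusted p = 0.0407). Tyk2 lost its call in 9 of the 10 fits without 1 library, all but that without WT replicate 4 (edgeR adjusted p of 0.00833 to 0.0942 over the 10). In KPC Stat2 had a log2 change of 0.58 (SE 0.261, edgeR adjusted p = 0.153) and Usp18 of 0.24 (SE 0.396, edgeR adjusted p = 0.697). The Usp18 and Irf9 changes differed between lines, by -3.28 (SE 0.667, edgeR interaction adjusted p = 0.00295) and -0.80 (SE 0.238, 0.0252).

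Of 7 genes of dsRNA and related sensing, 6 rose in ID8 and 0 fell (median 0.57), and 0 were called in KPC in either direction by edgeR, where 3 had an unadjusted p under 0.05 (median 0.41). The shares of all tested genes were 25.4% higher in ID8 and 13.7% called in KPC, so 0 of 7 is near the KPC share. In ID8 these included Zbp1, a sensor of unusual nucleic acid helices (2.95, SE 0.219), Ddx58, the RNA sensor RIG-I (0.92, SE 0.0625), Dhx58, a related regulator (0.59, SE 0.219), and Adar, an RNA editing enzyme that limits dsRNA sensing (0.57, SE 0.0559). Mavs, the adaptor of the RNA sensors, had a log2 change of -0.07 (SE 0.0618, edgeR adjusted p = 0.372) in ID8. Of 11 interferon ligand genes named, 0 passed the count filter in either line.

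Removing the 4 KPC libraries with the muscle transcript Acta1 above 1000 CPM (KO replicates 2 and 5, WT replicates 2 and 4), a choice made after seeing the data, gave KPC log2 changes of 1.24 for Oas1a, 1.00 for Oas1g, 0.75 for Oas2, 0.81 for Oas3, 0.27 for Oasl1 and 1.13 for Oasl2. Still 0 of 6 were called by edgeR (adjusted p of 0.0934 for Oas1a to 0.629 for Oasl1). The summed level of 3 skeletal muscle markers was 3.49 to 4143 CPM in KPC KO and 336 to 20620 CPM in KPC WT, and its part in the result was not tested beyond this fit. Without WT replicate 4 alone the changes were 0.90 for Oas1a, 0.67 for Oas2 and 0.98 for Oasl2, with edgeR adjusted p of 0.128, 0.264 and 0.0922. Of the 4 libraries removed for Acta1, KO replicate 2 was the lowest KO library for 6 of 6 members. WT replicate 4 was the highest WT library for 5 of 6. Their removal therefore raises the fitted changes by itself.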

How the data were processed

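RNA of 16 mouse tumour libraries was sequenced. The submitters' processing notes name HISAT, RSEM 1.2.8 and the build GRCm39 (mm39); read length, strandedness and filters are not given in the sources used here. The authors deposited expected counts by gene (7.92% to 8.96% per table are not whole), in 4 tables that list only genes above 0 in at least 1 of their samples. All 16 columns were matched to samples by name. Genes that a table does not list were set to 0, and values were rounded. No replicates looked like one library deposited again (lowest chi-square per gene between replicates 4.36).

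Each line was fitted alone with edgeR 4.0.16 (limma 3.58.1, R 4.3.3): TMM, filterByExpr, robust quasi-likelihood F test, Benjamini-Hochberg adjustment over all tested genes, called at 0.05. All 6 members passed the filter in both lines. The SE is approximate, from the log2 change and its F statistic. The difference between lines is a contrast over all 16 libraries. Totals per library limit the precision, and counting intervals cover counting error only. Motifs, shared stretches and promoters used RefSeq GRCm38.p6 and GENCODE M21, with Biopython 1.88 for the alignment.

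The members and gene lists were chosen with earlier results of these data known. Genes named are the members, Trp53bp1, up to 4 called genes per list by size, Abce1 and Pde12, the markers and the 5 genes most like the members in KPC (mean log2 CPM of at least 1, prior count 2, without predicted, Rik, antigen receptor and pseudogenes). Some pathway genes are not reported here and were left out of the list counts. Other genes named were chosen after their values were seen (Ifnar1, Ifnar2, Jak1, Tyk2 in ID8, and Mavs). Alternatives were median-of-ratios size factors, DESeq2 1.42.0, limma-voom, no filter, a filter at 1 CPM, a joint fit, a replicate block, the Oas1 genes added up, genes listed in both tables, a log2 fold cut of 1, and leaving out each library. Leaving out libraries with Acta1 above 1000 CPM was added after seeing the data. In 3 simulations with 200 changed genes, the fit recovered 99% of 2-fold and 99.7% of 4-fold changes in ID8 (11933 genes) and 78.7% and 95.7% in KPC (14283 genes), with 6.55% of calls false in ID8 and 4.03% in KPC. The changed genes were drawn at random from genes above 1 CPM, so these shares do not give the power for the members. The SE of the members in KPC ran from 0.253 for Oasl1 to 0.526 for Oas3.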

Additional observations from a re-analysis of the deposited data

Results flagged for a closer look

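Abce1 stood out in KPC WT replicate 3, at 194.9 CPM, with a gap to the other WT libraries (157.7 to 168.3 CPM) past Dixon's 95% critical value for 5 samples. It was the only library flagged in 18 groups checked, and chance flags about 1 in 20.

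The knockout change differed between the lines, by edgeR's interaction contrast, for Abce1 (KPC change minus ID8 change -0.44, SE 0.106, adjusted p = 0.00817), Irf9 (-0.80, SE 0.238, adjusted p = 0.0252) and Usp18 (-3.28, SE 0.667, adjusted p = 0.00295). Usp18 averaged 3.62 CPM in ID8 KO against 0.306 CPM in ID8 WT, and 8.81 CPM in KPC KO against 7.40 CPM in KPC WT. Over all 14921 genes tested, 21.9% were called by this contrast.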

How the results depend on the processing

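The count of members called stayed at 0 in KPC under all 21 alternatives and at 6 in ID8 under 13 of 16. It was 5 in ID8 with the Oas1 genes added up, which leaves 5 features to test, and 5 of 6 in the joint fit and with the log2 fold cut, where Oasl1 was not called. In the main fits 13.7% of tested genes were called in KPC and 50.8% in ID8. Nothing is read from the ID8 count of members, which were chosen with that contrast known. The median difference between lines over the members was -2.97 to -3.57 without 1 library each, and -2.41 with the Oas1 genes added up, which leaves 5 features. For the Oas1 sum the log2 change was 0.25 to 0.79 in KPC and 2.88 to 3.03 in ID8 without 1 library each. Signs changed for Oas3 in KPC (-0.07 to 0.64) and Oasl1 in KPC (-0.06 to 0.30) when 1 library was left out, and neither was called. The KPC sizes also depended on the tool. With limma-voom they were 1.03 for Oasl2, 0.74 for Oas3 and 0.63 for Oas2, against 0.61, 0.17 and 0.29 by edgeR. For Oas1a, Oas1g and Oasl1 limma-voom gave 0.51, 0.45 and 0.19, against 0.58, 0.41 and 0.08. The limma-voom adjusted p of the members ran from 0.0784 for Oasl2 to 0.571 for Oasl1. Genes called over the whole table numbered 1954 in KPC, and 3162 with DESeq2, 3149 with limma-voom, 3524 in the joint fit, 550 with a log2 fold cut and 927 to 3106 without 1 library (3106 without WT replicate 4). In ID8 they numbered 6067, and 2679 in the joint fit, 747 with the fold cut and 5355 to 5786 without 1 library. The cause was not tested. Irf1, called in ID8, was not called there in the joint fit (log2 change 0.39, edgeR adjusted p = 0.302).

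Replicate numbers are shared between groups, but same-numbered samples did not regularly deviate together. The correlation of their deviations was -0.11 to 0.136 in ID8 and -0.536 to 0.587 in KPC. The own number correlated best for 1 of 3 knockout libraries in ID8 and 1 of 5 in KPC. The exception in KPC was number 2 (0.587), where both libraries were among those with Acta1 above 1000 CPM. With a replicate block, 1665 genes and 0 members were called in KPC, and 5852 genes and 6 members in ID8. With ID8 WT at 0 to 17 rounded counts, depth limits the changes of Oas1a, Oas1g, Oas2 and Oas3 in ID8.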

Other observations

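The remaining Oas1 genes were close to 0. Oas1f had 39 counts in KPC WT replicate 3, 6 in WT replicate 5, 9 in KO replicate 1 and 2 in KO replicate 5, and 0 in every other KPC library and in all 6 ID8 libraries. Oas1d had at most 1 count and Oas1e at most 2 counts in any library. Of the closest genes by pattern in KPC, Ifit1 had a log2 change of 2.99 (SE 0.156, edgeR adjusted p = 1.72e-10) and Isg15 of 1.34 (SE 0.152, edgeR adjusted p = 1.25e-05) in ID8, where H2-Q6 did not pass the count filter.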
